A study of Mus musculus with 8 samples.

Results

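A set of 10 genes used to recognise granulocyte progenitors was followed over 8 libraries: Mpo, Elane, Prtn3, Ctsg, Ms4a3, Fcnb, Clec12a, Igsf6, Hp and Fcgr3. They were chosen by symbol, all 10 of 10 are among the 23293 mouse genes of the table, and all 10 passed the filter of a mean of at least 1 FPKM that 10854 genes passed. FPKM are fragments scaled by the length of the transcript and by the total of a library. The label of the set, primary granule genes, fits its first 4 members by known function. The other 6 are surface proteins or secreted proteins of the same cells or of their descendants.

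The RNA came from bone marrow cells of individual mice selected on magnetic beads for Kit (Cd117), the stem cell factor receptor, 4 weeks after PIpC, an inducer of Mx1-cre. There were 8 libraries, 2 mice in each of 4 groups. The combined group carried Mx1-cre, Flt3-ITD and an Smc3 allele that the genotype field gives as fl/del and the title as het. The Flt3-ITD group carried Mx1-cre and Flt3-ITD. The Smc3 del/+ group carried Mx1-cre and a single floxed Smc3 allele. Controls had a floxed Smc3 allele (Smc3 fl/+) and no Mx1-cre, so every comparison with control is also one of the recombinase. The Mx1 promoter responds to interferon and is not restricted to blood cells. Ages were not in the labels. Smc3 is a subunit of the cohesin ring, and Flt3-ITD is an activating duplication in the Flt3 receptor kinase, common in acute myeloid leukaemia.

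Neutrophils store their enzymes in granules that are filled in order of maturation. Primary (azurophil) granules are made first, by promyelocytes and their progenitors. Myeloperoxidase (Mpo) makes hypochlorous acid there, and the serine proteases neutrophil elastase (Elane), proteinase 3 (Prtn3) and cathepsin G (Ctsg) are stored beside it. Transcription of these enzyme genes is switched off as the cells mature, and the factors C/EBP, PU.1, RUNX and MYB are known regulators of such genes.

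Facts of the libraries that touch these genes were as follows. Smc3 was at 103 and 136 FPKM in the combined libraries, at 135 and 133 in the libraries labelled Smc3 del/+, at 94.7 and 89.9 in Flt3-ITD and at 119 and 112 in control. Both Smc3 del/+ libraries were above both controls, and the combined libraries lay on either side of the controls and above Flt3-ITD. Whether fragments from a deleted allele are counted in these values was not tested. Xist was at 500 FPKM or more in the combined and control libraries and under 1 FPKM in the Flt3-ITD and Smc3 del/+ libraries, the female and male pattern. Sex and genotype cannot be told apart in Flt3-ITD against control, Smc3 del/+ against control, combined against Flt3-ITD, or the interaction, while combined against control lies within the female pattern and the averaged effects have both patterns on each side. Kit was detected in all libraries, at 37.4 to 60.1 FPKM. Although the cells were selected on it, Kit was called lower in combined against control (-0.56 ± 0.136, limma adjusted p = 0.0391). Replicates correlated at r = 0.932 in the combined pair and at 0.975 to 0.981 in the other pairs, over genes, which are not independent. The small RNA gene Mir5133 took 12.9% and 6.20% of the mouse FPKM in the controls and 3.90% in Smc3 del/+ replicate 2, and was listed at 0 in the other 5 libraries.

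The adjacent genes Elane and Prtn3 on chromosome 10 are shown because their levels moved nearly in step, except in Flt3-ITD replicate 2. There Elane over Prtn3 was 5.56, against 4.25 to 4.41 in the other libraries. Also shown are Clec12a and Igsf6, which had the smallest p of the set in Flt3-ITD against control. The promoters of all these genes, 250 bases before to 50 bases after the start, were taken from RefSeq (GRCm38.p6, a later build than the mm9 of the files). Entries were found for 9 of the 10 genes, all but Hp. Elane (chr10:79886062-79886361), Prtn3 (chr10:79879417-79879716) and Clec12a (chr6:129349994-129350293) are on the + strand, and Igsf6 (chr7:121074481-121074780) is on the - strand. Capitals mark matches on either strand to the core motifs of the factors named above.
Elane: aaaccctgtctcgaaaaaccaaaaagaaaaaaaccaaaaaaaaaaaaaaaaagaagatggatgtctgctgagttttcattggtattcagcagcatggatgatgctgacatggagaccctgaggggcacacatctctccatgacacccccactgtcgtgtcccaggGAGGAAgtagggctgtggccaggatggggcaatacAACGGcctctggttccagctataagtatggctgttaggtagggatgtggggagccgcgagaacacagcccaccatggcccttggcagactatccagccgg
Prtn3: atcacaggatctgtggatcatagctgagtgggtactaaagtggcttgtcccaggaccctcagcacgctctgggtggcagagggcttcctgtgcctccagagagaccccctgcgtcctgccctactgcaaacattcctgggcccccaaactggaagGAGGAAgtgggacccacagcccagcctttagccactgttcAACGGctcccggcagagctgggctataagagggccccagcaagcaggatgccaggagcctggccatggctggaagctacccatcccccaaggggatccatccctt
Clec12a: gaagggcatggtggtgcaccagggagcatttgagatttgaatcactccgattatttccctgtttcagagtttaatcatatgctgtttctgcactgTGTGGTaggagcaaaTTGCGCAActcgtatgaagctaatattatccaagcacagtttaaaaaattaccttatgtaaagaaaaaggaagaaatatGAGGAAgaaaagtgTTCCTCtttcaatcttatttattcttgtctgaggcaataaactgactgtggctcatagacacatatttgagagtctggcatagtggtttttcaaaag
Igsf6: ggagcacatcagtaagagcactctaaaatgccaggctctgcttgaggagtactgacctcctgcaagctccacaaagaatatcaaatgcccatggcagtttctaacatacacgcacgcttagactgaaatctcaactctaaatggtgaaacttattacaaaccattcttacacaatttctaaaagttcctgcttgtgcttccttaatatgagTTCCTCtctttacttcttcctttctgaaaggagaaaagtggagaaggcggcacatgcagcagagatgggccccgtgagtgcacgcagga

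The motifs searched were GAGGAA for PU.1, AACGG for MYB, TGTGGT for RUNX and TTGCNNAA for C/EBP, each on both strands. GAGGAA was in 8 of 9 promoters of the set, against 28.3% of all 32851 promoters of that length. AACGG was in 2 of 9 (17.4% of all), TGTGGT in 2 of 9 (16.8%) and TTGCNNAA in 4 of 9 (10.8%). The Elane and Prtn3 promoters shared an order of matches: GAGGAA began at positions -85 and -95, and AACGG at -50 and -55, counted in bases from the start. The order of GAGGAA and then AACGG on the same strand within 60 bases, chosen after it was seen in this pair, was in 152 of all promoters (0.463%). The Clec12a promoter held TTGCGCAA at -140 and TGTGGT at -155, and GAGGAA on each strand. Igsf6 held 1 match, TTCCTC, at -39. A match is a string of letters and says nothing here about binding.

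The enzymes were the most abundant of the set, and their order was stable. Mpo had 3432 and 3177 FPKM in combined, 3442 and 4063 in Flt3-ITD, 2926 and 3112 in Smc3 del/+, and 2644 and 2695 in control libraries. All 6 libraries with a mutant genotype were above both controls. Mpo ranked 12th to 17th of the mouse genes and was the first of the set in all 8 libraries.

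Elane was second in all 8 libraries. Its levels were 1393 and 1897 FPKM in combined, 1607 and 1931 in Flt3-ITD, 1451 and 1616 in Smc3 del/+, and 1272 and 1305 in control libraries. The 2 combined mice differed more than any other pair, and all 6 mutant libraries were above the controls.

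Prtn3 had 315 and 433 FPKM in combined, 366 and 347 in Flt3-ITD, 332 and 380 in Smc3 del/+, and 294 and 307 in control libraries, so that again no mutant library fell among the controls. Ctsg had 300 and 346 FPKM in combined, 333 and 397 in Flt3-ITD, 315 and 409 in Smc3 del/+, and 352 and 309 in control libraries. Ctsg overlapped between every pair of groups and had the smallest spread of the set, its highest library standing 1.36-fold above its lowest.

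Ms4a3, a membrane protein of granulocyte and monocyte progenitors, had 121 and 187 FPKM in combined, 177 and 188 in Flt3-ITD, 169 and 198 in Smc3 del/+, and 169 and 159 in control libraries. The combined library at 121 FPKM was the lowest of the 8. Fcnb, the lectin ficolin B, had 403 and 450 FPKM in combined, 583 and 376 in Flt3-ITD, 512 and 523 in Smc3 del/+, and 283 and 298 in control libraries. Its 2 Flt3-ITD mice lay on either side of the combined and Smc3 del/+ mice, and both controls were below all others.

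The 4 remaining genes were ordered by the Flt3 allele, with Smc3 del/+ between. Igsf6, a transmembrane immunoglobulin superfamily protein of myeloid cells, had 685 and 759 FPKM in combined, 772 and 665 in Flt3-ITD, 533 and 484 in Smc3 del/+, and 369 and 353 in control libraries. All 4 libraries with Flt3-ITD were above all 4 without it, and Smc3 del/+ stood above control.

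Clec12a, an inhibitory C-type lectin receptor, had 280 and 281 FPKM in combined, 336 and 339 in Flt3-ITD, 232 and 257 in Smc3 del/+, and 184 and 168 in control libraries. The 4 groups did not overlap. Hp, haptoglobin, which binds free haemoglobin and is stored in later granules, had 348 and 277 FPKM in combined, 434 and 324 in Flt3-ITD, 255 and 255 in Smc3 del/+, and 180 and 201 in control libraries. Fcgr3, a low-affinity receptor for IgG, had 209 and 159 FPKM in combined, 211 and 187 in Flt3-ITD, 145 and 138 in Smc3 del/+, and 119 and 100 in control libraries. For both, combined and Flt3-ITD overlapped and both lay above Smc3 del/+, which lay above control. For the order of group levels, Igsf6, Hp and Fcgr3 thus did not separate combined from Flt3-ITD.

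**Figure D1:**
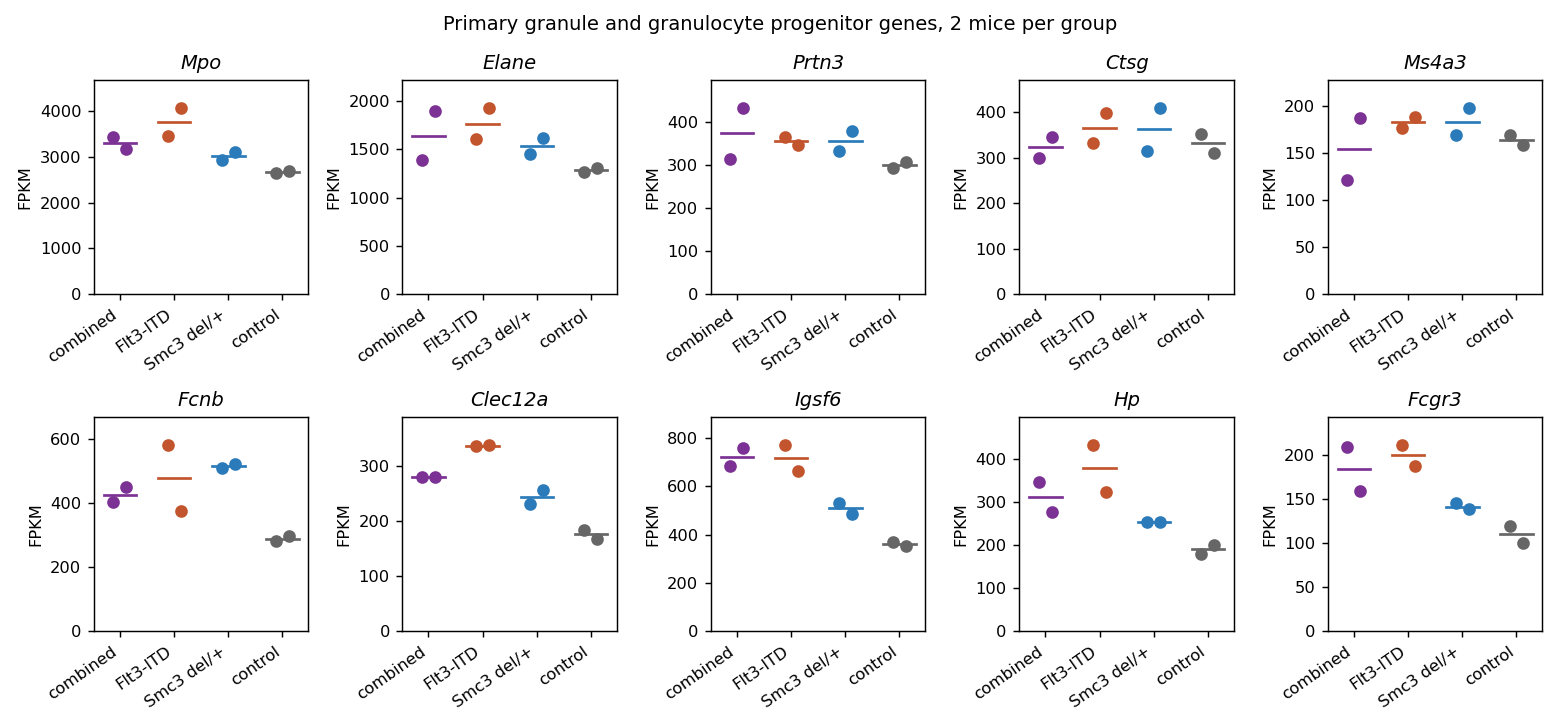
FPKM of each gene (vertical axis, from 0) in the 2 mice of each group, with points for mice and lines for group means. Mpo, Elane, Prtn3, Ctsg and Ms4a3 span at most 1.64-fold over the 8 libraries, while Hp spans 2.41-fold and Igsf6 2.18-fold.

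The effect of Flt3-ITD averaged over both Smc3 states, with both sex patterns on each side and the controls as the only libraries without Mx1-cre, was tested first. Igsf6, Clec12a, Hp and Fcgr3 rose, and the 4 enzymes, Ms4a3 and Fcnb did not pass. Igsf6 had a log2 difference of 0.75 ± 0.135 (SE; limma adjusted p = 0.00694), Hp of 0.63 ± 0.173 (adjusted p = 0.0309), Fcgr3 of 0.61 ± 0.144 (adjusted p = 0.0183) and Clec12a of 0.57 ± 0.154 (adjusted p = 0.03). Among the enzymes the values were 0.31 for Mpo, 0.27 for Elane, 0.15 for Prtn3 and -0.01 for Ctsg, with adjusted p of 0.206 to 0.973. Thus 4 of 10 genes were called higher, where 10.9% of all genes tested were, and the median of the 10 was 0.29 against -0.01 for all genes. Libraries of the 2 sides did not overlap for 5 of 10 (these 4 and Mpo), against 12.1% of all genes. Igsf6 alone was called without either control or either Flt3-ITD library, and the other 3 calls lapsed in those fits.

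In the combined group against control, the comparison within the female pattern, the same 4 genes rose. Igsf6 differed by 1 ± 0.15, Fcgr3 by 0.73 ± 0.171, Hp by 0.7 ± 0.185 and Clec12a by 0.67 ± 0.126 on the log2 scale, with limma adjusted p of 0.00909, 0.0349, 0.0488 and 0.0184. These are 4 of 10, where 5.41% of all genes were called higher. Fcnb differed by 0.55 ± 0.209 and did not pass (adjusted p = 0.13), and Ctsg and Ms4a3 were at -0.03 and -0.13. For 8 of 10 the combined mice lay above both controls without overlap, against 25.8% of all genes. No call held without control replicate 1 or control replicate 2, Igsf6 alone was called without either Smc3 del/+ library, and Igsf6 and Clec12a were called without either Flt3-ITD library. Leaving out combined replicate 1 added calls for Elane and Prtn3, while not all of the 4 calls above held. Leaving out combined replicate 2 put Ms4a3 at -0.44, a lower level. Calls over all genes grew in these fits, to 1392 higher and 1721 lower without the first and 1703 and 1724 without the second, against 587 and 692 with all libraries. The lone combined library is there assumed to vary like the other groups. When only the combined and control groups were fitted, 0 of the 10 genes were called, and 41 of all genes were, against 1279 in the main fit. The difference between the 2 combined libraries had an SD over genes of 0.701 on the log2 scale. In the other pairs it was 0.35 to 0.409.

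Flt3-ITD against control, a comparison that also differs in sex pattern, gave calls for these genes as well. Igsf6 differed by 0.99 ± 0.15 (limma adjusted p = 0.00653), Hp by 0.98 ± 0.185 (adjusted p = 0.0133), Clec12a by 0.94 ± 0.126 (adjusted p = 0.00446) and Fcgr3 by 0.86 ± 0.171 (adjusted p = 0.0163). Fcnb, at 0.69 ± 0.209, missed the threshold (adjusted p = 0.0588), as did Mpo at 0.49 ± 0.205 (0.141) and Elane at 0.45 ± 0.211 (0.179). Calls went to 4 of 10, against 8.51% of all genes called higher, and 9 of 10 had no overlap, all but Ctsg, against 34.3%. Without control replicate 1 or Flt3-ITD replicate 1 only Clec12a was called, without control replicate 2 none was, and without either combined library Mpo, Elane and Fcnb were called too. In those last fits 2069 and 2076 of all genes were called higher, against 924 with all libraries. These comparisons share the control libraries.

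**Figure D2:**
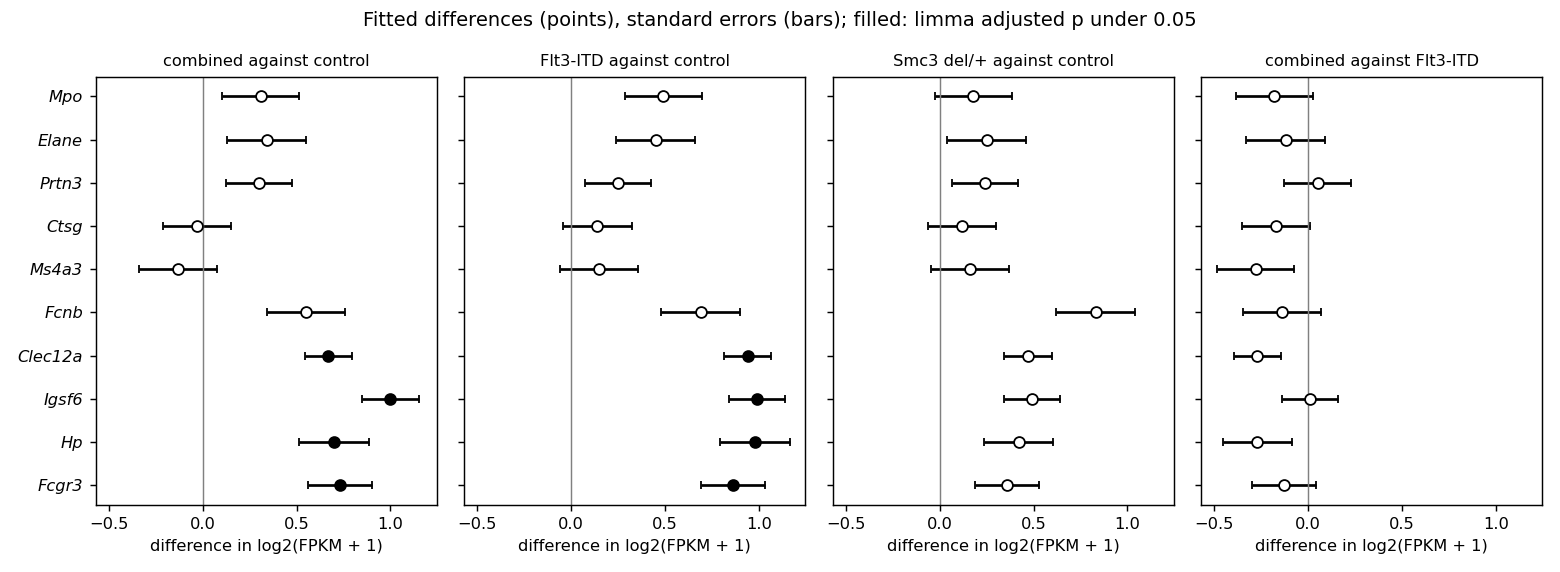
Differences in log2(FPKM + 1) (horizontal axis) of each gene, with bars of 1 standard error of the limma fit; filled points have an adjusted p under 0.05. Igsf6, Clec12a, Hp and Fcgr3 are the filled points in Flt3-ITD against control and combined against control. No point is filled in Smc3 del/+ against control or combined against Flt3-ITD.

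The Smc3 deletion without Flt3-ITD was tested in Smc3 del/+ against control, groups that also differ in Mx1-cre and in sex pattern. None of the 10 passed, where 0.00921% of all genes did in either direction, which is 1 gene, Xist. At an unadjusted p under 0.05 there were 494 genes, 3 of them in the set. These were Fcnb (0.83 ± 0.209, adjusted p = 0.751), Igsf6 (0.49 ± 0.15, adjusted p = 0.818) and Clec12a (0.47 ± 0.126, adjusted p = 0.764). As deposited, all 10 differences were positive, and 8 of 10 had no overlap, all but Ctsg and Ms4a3, against 24.2% of all genes. In the table that the authors normalized, Mpo, Elane, Prtn3, Ctsg and Ms4a3 were negative, against a median of -0.38 for all genes. On equal spike-in totals, where that median was -0.34, these genes and Fcgr3 turned sign. Fcnb passed when only these 2 groups were fitted (adjusted p = 0.0254). Averaged over both Flt3 states, no gene of the set and no gene of all 10854 passed by limma (525 had an unadjusted p under 0.05), and the largest value was 0.35 ± 0.218 for Fcnb (adjusted p = 0.901).

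With Flt3-ITD present, the deletion was tested in combined against Flt3-ITD, groups that also differ in sex pattern. None of the 10 passed, where 0.286% of all genes did (31 genes, and 1196 at an unadjusted p under 0.05). Clec12a differed by -0.27 ± 0.126 (adjusted p = 0.469), and it and Mpo (-0.18 ± 0.205) lay lower without overlap, against 16.8% of all genes. Igsf6 had 0.01 ± 0.15. The interaction, which asks whether the deletion acts differently with Flt3-ITD and which follows sex in full, passed for none of the 10 (0.0369% of all genes). It was negative for all 10, from -0.97 ± 0.295 for Fcnb (adjusted p = 0.385) and -0.74 ± 0.179 for Clec12a (adjusted p = 0.281) to -0.19 for Prtn3, with a median of -0.46 against -0.01 for all genes. Without combined replicate 1 it passed for Clec12a (-0.73, adjusted p = 0.0202), Hp (-0.86, adjusted p = 0.0387) and Fcgr3 (-0.69, adjusted p = 0.0379). In that fit 1050 of all genes were called lower and 986 higher, against 2 each with all libraries.

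FPKM are shares of a total, and another total moves them. Summed, the 10 genes took 1.33% and 1.19% of the mouse FPKM in combined, 1.22% and 1.5% in Flt3-ITD, 1.30% and 1.33% in Smc3 del/+, and 0.953% and 1.09% in control libraries. With Mir5133 left out of the totals, the controls stood at 1.09% and 1.16%. Under equal totals without Mir5133, the median of all genes in Flt3-ITD against control was -0.25, and Clec12a (0.66, limma adjusted p = 0.0186), Igsf6 (0.71, adjusted p = 0.00983) and Hp (0.70, adjusted p = 0.045) were still called, while Fcgr3 was not (0.58, adjusted p = 0.0809). In the table that the authors normalized, that median was -0.58, and no gene of the set was called. Igsf6 was then at 0.51, Hp at 0.48, Clec12a at 0.44 and Fcgr3 at 0.35, which are 1.09, 1.06, 1.02 and 0.93 above the median of all genes. Scaling to equal spike-in totals put the median at -0.50 and these 4 at 0.81 to 0.94 above it, with no call.

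The direction of the enzymes and of Ms4a3 rested on the scaling. In Flt3-ITD against control, Prtn3, Ctsg and Ms4a3 were positive as deposited and negative under all 3 other scalings. In combined against control in the authors' normalized table, Ctsg (-0.68, limma adjusted p = 0.0119) and Ms4a3 (-0.80, adjusted p = 0.0079) were called lower, against a median of -0.67 for all genes. The split of all genes moved as well: in Flt3-ITD against control 924 were called higher and 1031 lower as deposited, 106 and 4768 in the normalized table, 103 and 3404 on spike-in totals, and 277 and 1958 without Mir5133. For combined against control these pairs were 587 and 692, 124 and 5857, 117 and 4757, and 217 and 1160. In the averaged Flt3-ITD effect, Igsf6 was the one member called without Mir5133, none was called higher in the normalized table or on spike-in totals, and Ctsg and Ms4a3 were called lower in both. Over all genes, the pairs called higher and lower there were 1187 and 1394, 222 and 4831, 237 and 4168, and 459 and 2768.

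**Figure D3:**
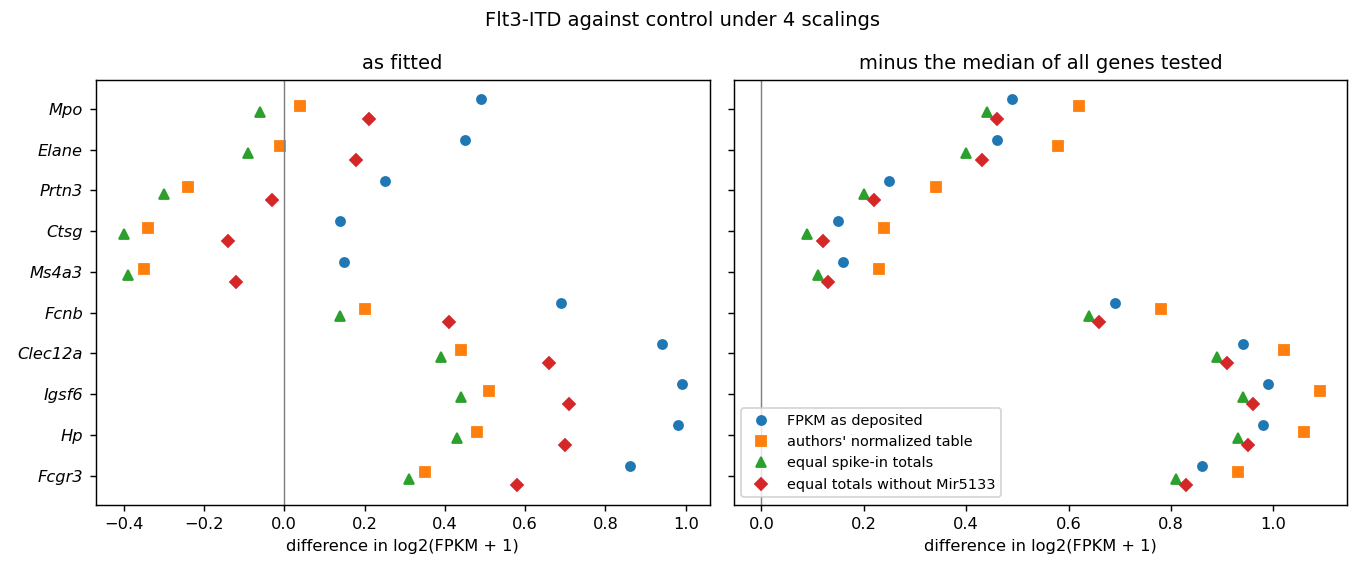
Flt3-ITD against control for each gene under 4 scalings, as fitted (left) and after the median of all genes tested is taken off (right), in log2(FPKM + 1). As fitted, Prtn3, Ctsg and Ms4a3 are negative under 3 scalings, Elane under 2 and Mpo under 1; above the median, all 10 are positive under all 4, with Igsf6 at 0.94 to 1.09.

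Ratios between genes of one library do not depend on a common scale factor, and are given as a description. Elane over Prtn3 was 4.25 to 4.41 in 7 libraries and 5.56 in Flt3-ITD replicate 2. Mpo over Elane was 2.46 and 1.67 in combined, 2.14 and 2.10 in Flt3-ITD, 2.02 and 1.93 in Smc3 del/+, and 2.08 and 2.07 in control libraries, so the 2 combined mice were the extremes. Igsf6 over Elane was 0.492 and 0.400 in combined, 0.480 and 0.345 in Flt3-ITD, 0.367 and 0.3 in Smc3 del/+, and 0.290 and 0.271 in control libraries. Flt3-ITD replicate 2 lay within the Smc3 del/+ range, and all 6 mutant libraries were above the controls.

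Clec12a over Elane was 0.201 and 0.148 in combined, 0.209 and 0.176 in Flt3-ITD, 0.160 and 0.159 in Smc3 del/+, and 0.145 and 0.129 in control libraries. Hp over Elane was 0.250 and 0.146 in combined, 0.270 and 0.168 in Flt3-ITD, 0.176 and 0.158 in Smc3 del/+, and 0.142 and 0.154 in control libraries. Fcgr3 over Elane was 0.15 and 0.0836 in combined and 0.132 and 0.0968 in Flt3-ITD. It was 0.0999 and 0.0851 in Smc3 del/+ and 0.0939 and 0.0768 in control libraries. In combined replicate 2 the ratios of Clec12a, Hp and Fcgr3 to Elane were near or within those of the controls. Fcnb over Elane was 0.194 in Flt3-ITD replicate 2, below both controls (0.222 and 0.228), and above both in every other mutant library. Ms4a3 over Elane ran the other way, at 0.0866 and 0.0987 in combined, 0.110 and 0.0974 in Flt3-ITD, 0.116 and 0.122 in Smc3 del/+, and 0.133 and 0.122 in control libraries. All 4 libraries with Flt3-ITD were below the 4 without it.

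**Figure D4:**
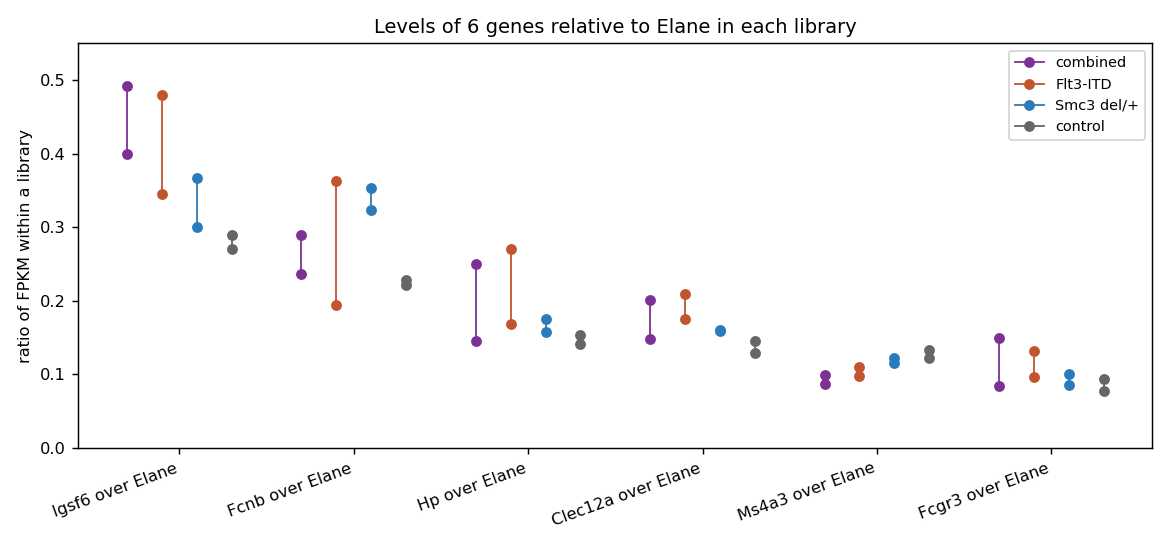
FPKM of 6 genes divided by that of Elane in the same library (vertical axis), with 1 point for each mouse, by group. Igsf6 over Elane reaches 0.492 in combined and 0.271 to 0.290 in control, and Ms4a3 over Elane is lowest in combined replicate 1 at 0.0866.

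Markers of other cell types moved beside these results. The summed FPKM of 12 mature neutrophil markers was 143530 and 172920 in combined, 230508 and 161462 in Flt3-ITD, 109135 and 105012 in Smc3 del/+, and 87196 and 79950 in control libraries. All 12 had positive values in the averaged Flt3-ITD effect under each scaling, and 6 rose as deposited and 5 under each other scaling, among them Ltf, lactoferrin of later granules. Ngp, S100a8 and S100a9 made up most of the sum. Mmp8, Mmp9 and Retnlg, markers of late maturation, stood at 137, 48.2 and 66.1 FPKM in combined replicate 2 and were below both controls there and in both Smc3 del/+ libraries. The 8 monocyte and macrophage markers summed to 181 to 268 FPKM in combined, 146 and 202 in Flt3-ITD, 86.9 and 104 in Smc3 del/+, and 106 and 134 in control, with F13a1 and Ccr2 the most abundant. In the averaged Flt3-ITD effect as deposited, 5 of 7 tested rose and the macrophage genes C1qa and C1qb fell. Without Mir5133, 3 rose, and none rose in the normalized table or on spike-in totals, while C1qa and C1qb fell under each scaling. As deposited, 10.9% of all genes were called higher in that effect and 1394 of 10854 lower. Without Mir5133, 459 of 10878 were higher and 2768 lower. The normalized table gave 222 and 4831 of 11027, and spike-in totals 237 and 4168 of 10908. The 8 erythroid markers summed to 138 and 477 FPKM in combined, 126 and 35 in Flt3-ITD, 1313 and 1437 in Smc3 del/+, and 1500 and 1419 in control libraries, and 6 of 7 tested fell. B cell markers summed to at most 9.53 FPKM in libraries with Flt3-ITD and to 27.7 to 177 without it, and megakaryocyte markers to 14.5 to 63.9 and 64.8 to 179. Dendritic cell markers reached 56.8 and 24.1 FPKM in combined and 4.66 to 8.16 elsewhere, and markers of mast cells, basophils and eosinophils 310 and 213 in combined and 83.4 to 201 elsewhere. Prg2, a granule protein of eosinophils, made up 228 and 143 FPKM of that sum in combined, and Cpa3, Mcpt8 and Ms4a2 of the same list fell in the averaged Flt3-ITD effect. Stem and early progenitor markers summed to 113 to 164, and of 5 tested, Cd34 rose and Kit fell in combined against control. T and NK cell markers summed to 6.33 or less, with Cd3e at 0 in Flt3-ITD replicate 2 and combined replicate 2. The part of these shifts in the results was not tested, and in bulk RNA more cells of a type cannot be told apart from more RNA per cell.

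Genes that work with the set were counted in 4 lists. Of 12 tested receptor chains and signalling partners, 8 rose in the averaged Flt3-ITD effect and none fell (median 0.74). Over all genes in that effect, 10.9% were called higher and 1394 of 10854 lower, with a median of -0.01. Fcer1g, the signalling chain of the Fc receptor Fcgr3, had 600 and 472 FPKM in combined, 672 and 560 in Flt3-ITD, 332 and 280 in Smc3 del/+, and 304 and 289 in control libraries, a difference of 0.92 ± 0.13 (limma adjusted p = 0.00278). Fcgr3 over Fcer1g was 0.348 and 0.336 in combined, 0.315 and 0.334 in Flt3-ITD, 0.437 and 0.492 in Smc3 del/+, and 0.393 and 0.346 in control libraries, highest in Smc3 del/+. Ptpn6, the phosphatase SHP-1 that binds inhibitory receptors such as Clec12a, had 167 and 138 FPKM in combined, 210 and 177 in Flt3-ITD, 114 and 112 in Smc3 del/+, and 97.0 and 102 in control libraries (0.69 ± 0.135, adjusted p = 0.00928). Lyn, a Src-family kinase, rose by 0.78 ± 0.103 (adjusted p = 0.00211), and Fcgr4, another IgG receptor, by 0.91 ± 0.175 (adjusted p = 0.00851). Fewer were called without either control library, and calls over all genes fell there as well. In the authors' normalized table and on spike-in totals, Fcer1g rose and Cdkn3 and Ptpn11 fell, and equal totals without Mir5133 gave 7 rises and no fall. Over all genes, the normalized table had 222 rises and 4831 falls of 11027, and spike-in totals 237 and 4168 of 10908. Without Mir5133 there were 459 and 2768 of 10878.

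Of 17 tested genes that activate, sort or inhibit the serine proteases, 4 rose and none fell (median 0.09). Of all genes, 10.9% were called higher. Slpi, a secreted inhibitor of elastase, had 31.5 and 20.5 FPKM in combined, 51.4 and 68.0 in Flt3-ITD, 12.5 and 9.34 in Smc3 del/+, and 22.3 and 25.0 in control libraries (1.23 ± 0.165, limma adjusted p = 0.00231). In Smc3 del/+ against control Slpi was at -1.06 ± 0.243 and did not pass (adjusted p = 0.735). Ctsc, the protease that activates these enzymes, had 23.6 and 21.9 FPKM in combined, 15.7 and 21.6 in Flt3-ITD, 12.4 and 15.8 in Smc3 del/+, and 12.6 and 14.2 in control libraries (0.55 ± 0.137, adjusted p = 0.0222). Rab27a, a GTPase of granule release, rose by 0.76 ± 0.142 (adjusted p = 0.00798), and Serpinb1a, an intracellular inhibitor of elastase, by 0.62 ± 0.183 (adjusted p = 0.0414). Fewer rises were called without control replicate 1, either Smc3 del/+ library or Flt3-ITD replicate 2. More rises, and a fall, were called without combined replicate 2. Calls over all genes moved the same way in these fits. In the normalized table and on spike-in totals Slpi rose and 4 genes fell (Canx, G6pc3, Hax1 and Vamp8). Without Mir5133 Slpi and Rab27a rose and Canx and G6pc3 fell. Falls were frequent over all genes too: 4831 of 11027 in the normalized table, 4168 of 10908 on spike-in totals and 2768 of 10878 without Mir5133. Rises over all genes were 222, 237 and 459 in that order.

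Of 16 other tested azurophil granule contents, 6 rose and none fell (median 0.22), where 10.9% of all genes were called higher. Among the 6 were the lysozymes Lyz1 and Lyz2 and the lysosomal proteins Man2b1 and Npc2. Lyz2 rose by 1.06 ± 0.239 (limma adjusted p = 0.0152). Prss57, a serine protease of azurophil granules, had 21.2 and 25.2 FPKM in combined, 24.4 and 28.7 in Flt3-ITD, 27.1 and 30.1 in Smc3 del/+, and 19.8 and 21.3 in control libraries (0.03 ± 0.152, adjusted p = 0.912). None was called without either control library, and fewer were called without Smc3 del/+ replicate 2, either Flt3-ITD library or combined replicate 1. Calls over all genes also fell in these fits. Lyz2 was 1 of 2 that rose without Mir5133, Lyz2 rose and 4 genes fell (Fuca1, Gaa, Gusb and Prss57) in the normalized table, and Gaa alone was called, lower, on spike-in totals. Among all genes, 2768 of 10878 fell without Mir5133, 4831 of 11027 in the normalized table and 4168 of 10908 on spike-in totals. Those that rose were 459, 222 and 237.

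Of 9 tested transcription factors of granulocyte progenitors, Cbfb, Cebpa, Cebpb and Irf8 rose and none fell (median 0.50). Of all genes, 10.9% were called higher. Irf8, which favours monocytes and dendritic cells over granulocytes, had 126 and 76.5 FPKM in combined, 58.7 and 89.2 in Flt3-ITD, 26.6 and 28.4 in Smc3 del/+, and 26.4 and 29.5 in control libraries (1.57 ± 0.195, limma adjusted p = 0.00187). Cebpa, needed to form granulocyte progenitors, rose by 0.46 ± 0.136 (adjusted p = 0.0396). Cebpe, which drives genes of later granules, had 57.1 and 33.6 FPKM in combined, 77.4 and 74.2 in Flt3-ITD, 39.6 and 46.8 in Smc3 del/+, and 36.0 and 37.8 in control libraries (0.52 ± 0.23, adjusted p = 0.133). Fewer were called without either control library, Smc3 del/+ replicate 2 or Flt3-ITD replicate 2. More were called without combined replicate 2. Calls over all genes moved the same way in these fits. Irf8 was the one rise without Mir5133, in the normalized table and on spike-in totals, and Myb, a factor of early progenitors, fell in the last 2 of these. In those last 2, 4831 of 11027 and 4168 of 10908 of all genes fell, and 222 and 237 rose. Without Mir5133, 459 of 10878 rose and 2768 fell. In Smc3 del/+ against control no gene of the 4 lists passed.

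**Figure D5:**
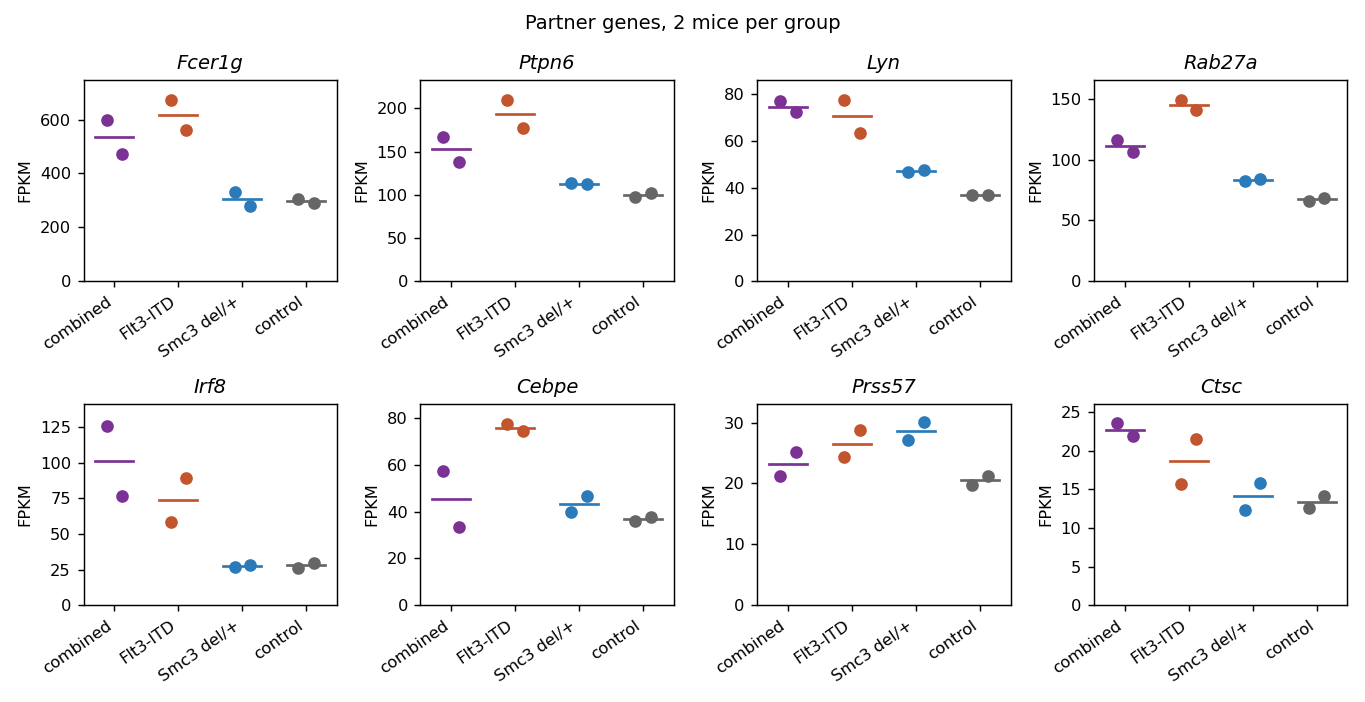
FPKM (vertical axis, from 0) of 8 partner genes in the 2 mice of each group, with lines for group means. Fcer1g, Ptpn6, Lyn, Rab27a and Irf8 are higher in all 4 libraries with Flt3-ITD. They were named for a small p in the averaged Flt3-ITD effect, where 12.1% of all genes were higher without overlap. Prss57, at 19.8 to 30.1 FPKM, has its highest group mean in Smc3 del/+, with Flt3-ITD replicate 2 (28.7) above Smc3 del/+ replicate 1 (27.1).

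By closeness of profile over the 8 libraries, the 8 genes outside the set nearest to the mean of the 4 enzymes were Rfwd2, Hp1bp3, Casd1, Tmem248, Ift57, 2610018G03Rik, Kin and Ssr1. Their root mean square difference from that mean on the log2 scale was 0.0603 to 0.0754. The median was 0.282 over the 6216 genes compared, from which these 8 were taken as the smallest. They varied little, with an SD of 0.111 to 0.168 over the libraries. The enzymes, which are part of that mean, stood at 0.0749 for Elane, 0.102 for Prtn3, 0.119 for Mpo and 0.121 for Ctsg. The likeness is over 8 libraries that share one set of totals.

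How far a fragment can be told from another gene was read from annotated transcripts. Of the 50-base stretches of Fcgr3, 9.58% were also in Fcgr2b, which rose with it. For Mpo, 9.46% were in other genes, with the predicted gene Gm11505 sharing the most. For Prtn3, 6.45% were in its neighbour Plppr3. For the other genes the share was 0, except 0.457% for Clec12a. The levels of Fcgr3, Mpo and Prtn3 are uncertain to that extent.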

How the data were processed

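RNA was sequenced from Kit-selected bone marrow of 8 individual mice, the replicates, 2 in each of 4 genotype groups taken from the labels. The authors deposited FPKM values in a raw and a normalized table. Per the submitters' processing notes, mm9, Cufflinks 2.0.0 and TopHat were used, with no role stated. Annotation, use of strand and the method of normalization were not given in the sources used here. Values were tested as log2(FPKM + 1), a scale that understates changes of low genes, using limma 3.58.1 (R 4.3.3, variance trend). Mouse genes averaging 1 FPKM or more over the libraries entered, and the Benjamini-Hochberg adjustment ran over all of them, with a threshold of 0.05. Single comparisons and the interaction came from 4 group means (4 residual degrees of freedom), and averaged effects from an additive model (5). An exact permutation test of 2 against 2 cannot go below p = 0.333.

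The 10 genes, the partner and marker lists and the designs were chosen with earlier results of these data known. All 10 are named, with up to 5 of each partner list by smallest p in the averaged Flt3-ITD effect and up to 3 in Smc3 del/+ against control. Alternatives were a pseudocount of 0.1, no filter on low values, the normalized table, equal totals without Mir5133, equal spike-in totals, a replicate block, only the 2 compared groups, and each library left out. Applying them to the partner lists was chosen after seeing the data. The values of 1 partner gene are not reported here. The fits were tested on simulated data. The depth in reads is unknown. Steps in low values put it at 0.71 to 1.01 of control replicate 1, from few genes (14 of 325 for combined replicate 2, the lowest). Read errors per gene could not be given.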

Additional observations from a re-analysis of the deposited data

How the results depend on the processing

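Of 14 counts and 115 single values (members, list counts and partner genes), under up to 15 alternatives each, the directions of Igsf6, Clec12a, Hp, Fcgr3 and Fcnb in Flt3-ITD against control were positive in every one; the changes listed here are those that turned a sign or moved a count by over 1.5 times, and the cause was not tested.

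Counts of genes called changed as follows. For Smc3 del/+ against control (1 gene), they were 3 with a pseudocount of 0.1, 3 with no filter, 12 in the normalized table, 2 without Mir5133, 15 on spike-in totals and 22 with only the 2 groups, where 1 member (Fcnb) was called. For combined against Flt3-ITD (31), they were 5 with a pseudocount of 0.1, 9 with no filter, 3 with the replicate block and 2 with only the 2 groups. For combined against control (1279), they were 5981 in the normalized table, 4874 on spike-in totals and 41 with only the 2 groups. Of the 10 members, 2 were called with no filter, 2 (lower) in the normalized table, 1 without Mir5133, 2 (lower) on spike-in totals and 0 with only the 2 groups. For the averaged Flt3-ITD effect (2581), they were 5053 and 4405 in the normalized table and on spike-in totals, with 2 members called with no filter, 2 (lower) in each of these tables and 1 without Mir5133. For Flt3-ITD against control (1955), they were 4874, 3507 and, with only the 2 groups, 3603, with 0 members in the first and second. For the averaged Smc3 effect (0), they were 3, 4 and, with the replicate block, 1. For the interaction (4), they were 2 with no filter, 19 in the normalized table, 7 without Mir5133 and 30 on spike-in totals.

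Leaving out one library each, genes called ran from 243 to 4235 in Flt3-ITD against control, 1 to 12 in Smc3 del/+ against control, 1208 to 4703 and 0 to 1 in the averaged Flt3-ITD and Smc3 effects, 3 to 3248 in combined against Flt3-ITD, 83 to 3427 in combined against control and 4 to 2036 in the interaction. The highest counts came without combined replicate 1 or 2 except in the averaged Smc3 effect (Flt3-ITD replicate 2), and in Flt3-ITD and combined against control the lowest came without control replicate 1 or 2. Members called ran from 0 to 7 in Flt3-ITD against control, 0 to 5 in combined against control, 1 to 4 in the averaged Flt3-ITD effect and 0 to 3 in the interaction, and were 0 throughout in the other comparisons.

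Signs turned in the normalized table for Mpo -0.10, Elane -0.04, Prtn3 -0.08, Ctsg -0.20 and Ms4a3 -0.18 in Smc3 del/+ against control; Elane -0.01, Prtn3 -0.24, Ctsg -0.34 and Ms4a3 -0.35 in Flt3-ITD against control; and Prtn3 -0.11 and Igsf6 -0.15 in combined against Flt3-ITD. They also turned for Mpo -0.29, Elane -0.28, Prtn3 -0.35 and Fcnb -0.09 in combined against control, for Mpo -0.07, Elane -0.12, Prtn3 -0.26 and Fcnb -0.20 in the averaged Flt3-ITD effect, and for Elane -0.16, Prtn3 -0.10, Clec12a -0.15, Hp -0.17 and Fcgr3 -0.14 in the averaged Smc3 effect. Without Mir5133 they turned for Prtn3 -0.03, Ctsg -0.14 and Ms4a3 -0.12 in Flt3-ITD against control, Prtn3 -0.09 and Fcnb -0.04 in the averaged Flt3-ITD effect and Mpo 0 in the averaged Smc3 effect. On spike-in totals they turned for Mpo -0.20, Elane -0.12, Prtn3 -0.13, Ctsg -0.25, Ms4a3 -0.22 and Fcgr3 0 in Smc3 del/+ against control, and for Mpo -0.06, Elane -0.09, Prtn3 -0.30, Ctsg -0.40 and Ms4a3 -0.39 in Flt3-ITD against control. There they also turned for Prtn3 -0.11 and Igsf6 -0.15 in combined against Flt3-ITD, and for Mpo -0.40, Elane -0.37, Prtn3 -0.41, Fcnb -0.15, Clec12a -0.04 and Hp 0 in combined against control. In the averaged Flt3-ITD effect they were Mpo -0.13, Elane -0.17, Prtn3 -0.29 and Fcnb -0.23, in the averaged Smc3 effect Elane -0.20, Prtn3 -0.12, Clec12a -0.17, Igsf6 -0.02, Hp -0.19 and Fcgr3 -0.15, and in the interaction Prtn3 0.02. In the averaged Flt3-ITD effect the partner Arsb was at -0.22, -0.04 and -0.23, and Prss57 at -0.41, -0.21 and -0.39, in the normalized table, without Mir5133 and on spike-in totals.

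Some signs turned when one library was left out. Ctsg then ran from -0.07 to 0.31 in Smc3 del/+ against control, -0.09 to 0.10 in the averaged Flt3-ITD effect, -0.13 to 0.05 in the averaged Smc3 effect and -0.14 to 0.07 in combined against control. In combined against Flt3-ITD, Elane ran from -0.34 to 0.11, Fcgr3 from -0.32 to 0.07, Fcnb from -0.45 to 0.18, Igsf6 from -0.10 to 0.12, Ms4a3 from -0.59 to 0.04 and Prtn3 from -0.18 to 0.28. In the averaged Smc3 effect, Clec12a ran from 0 to 0.18, Elane from 0 to 0.19, Hp from -0.03 to 0.23, Mpo from -0.05 to 0.08 and Ms4a3 from -0.15 to 0.11. In the averaged Flt3-ITD effect, Fcnb ran from -0.02 to 0.33, Ms4a3 from -0.15 to 0.11 and Prss57 from -0.08 to 0.14. Ms4a3 ran from -0.44 to 0.19 in combined against control, and Prtn3 from -0.42 to 0.04 in the interaction.

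Deviations of libraries with the same replicate number correlated at -0.11 to 0.02 between groups, so they share only a number. With the replicate block, 4 members were called in Flt3-ITD against control and in the averaged Flt3-ITD effect, and 3 in combined against control, where Hp had an adjusted p of 0.0622. With 2 mice a group and depth unknown, small differences could not be resolved.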
